A study of Homo sapiens with 4 samples.

Results

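SMC1 contacts were examined at the anaplastic lymphoma kinase gene ALK on chromosome 2, at the telomerase gene TERT with its neighbours SLC6A3 and LPCAT1 on chromosome 5, and between these 2 regions. The members are all anchor pairs with an anchor midpoint in chr2:29000000-30300000, termed the ALK window, or in chr5:1000000-1700000, termed the TERT window, in hg19. They number 3556 of 720049 listed pairs and use 84 of 39507 anchors. The regions were chosen by measured values, since the count of paired-end tags between them was already known to be high. That count is therefore given as a description without a test. Of the 3556 pairs, 257 lay within the ALK window, 60 within the TERT window and 45 joined the windows. The other pairs had 1 end elsewhere in the genome.

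The cells were Kelly, a human neuroblastoma line. Both groups used cells that had become resistant to TAE684, an inhibitor of ALK, and were kept in 1 µM of it. They were infected for 24 h with short hairpin RNA against BORIS (shBORIS), a paralog of the insulator protein CTCF, or with a control hairpin (shLUC), and selected with puromycin for 48 h. The labels do not say whether both shBORIS libraries used the same hairpin, nor whether the libraries of a group came from separate cultures. Each group has 2 libraries of chromatin interaction analysis by paired-end tags (ChIA-PET) and 1 table that pools them, so no value has a replicate error. Every test compares the 2 pools and not the conditions, and intervals cover counting error only. A paired-end tag (PET) is 1 sequenced ligation between 2 DNA fragments bound by the cohesin subunit SMC1. Intrachromosomal PETs totalled 146140 in shLUC and 163041 in shBORIS. Interchromosomal PETs totalled 288835 and 286938, or 66.4% and 63.8% of all PETs. The level of BORIS was not analysed here.

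Cohesin extrudes chromatin loops that often stop at CTCF sites, and SMC1 anchors mark loop bases and active regulatory elements. ALK is a receptor tyrosine kinase of the developing nervous system and a driver of neuroblastoma when mutated or amplified. TERT is the catalytic subunit of telomerase, is silent in most somatic cells, and can be switched on in neuroblastoma by rearrangements that move it beside distal enhancers. SLC6A3 encodes the dopamine transporter, and LPCAT1 is an acyltransferase that remodels membrane phospholipids. All 4 genes lie on the minus strand, so that their start sites are at the higher coordinate. In the RefSeq gene table of GRCh38.p14, used for gene order alone, CLIP4 and YPEL5 flank ALK, and CLPTM1L lies between TERT and SLC6A3.

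The promoters of ALK and TERT are shown because an SMC1 anchor covered each start site. The ALK start, 30144432 in hg19, lay in the anchor chr2:30142394-30145225, and the TERT start, 1295183, in chr5:1294361-1295562. The sequences are RefSeq's, 250 bases before to 50 after the start in GRCh38.p14, on the minus strand of chr2:29921537-29921836 for ALK and of chr5:1295019-1295318 for TERT. They are reference sequence and not that of the Kelly cells. Capitals mark GGGCGG or its reverse complement CCGCCC, the GC box bound by SP1-type factors.
ALK: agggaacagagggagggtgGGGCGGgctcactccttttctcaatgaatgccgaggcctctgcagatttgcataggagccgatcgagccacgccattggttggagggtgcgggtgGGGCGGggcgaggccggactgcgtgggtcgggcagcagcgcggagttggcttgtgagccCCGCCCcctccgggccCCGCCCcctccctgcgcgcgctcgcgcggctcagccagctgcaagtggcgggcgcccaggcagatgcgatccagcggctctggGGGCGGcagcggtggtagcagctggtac
TERT: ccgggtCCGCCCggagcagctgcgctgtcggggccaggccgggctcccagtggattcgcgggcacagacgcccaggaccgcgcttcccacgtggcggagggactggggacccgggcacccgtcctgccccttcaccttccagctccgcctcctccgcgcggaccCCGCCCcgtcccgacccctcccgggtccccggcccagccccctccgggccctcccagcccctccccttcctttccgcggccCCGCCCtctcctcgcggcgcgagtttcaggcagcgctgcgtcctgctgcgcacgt
The motif occurred 5 times in the ALK promoter and 3 times in that of TERT, and 45.0% of 35116 promoters of this length hold it on either strand. Both promoters are rich in G and C, at 71.0% and 77.3%. The E-box CACGTG, which reads the same on both strands and is bound by MYC family proteins, was found 1 time in the TERT promoter and 0 times in that of ALK, against 7.26% of promoters with a match. The TERT sequence shown ends in cacgt, and a match running past its end would not be counted. CCCTC or its reverse complement GAGGG, a run of letters within many CTCF sites, matched 5 times in ALK and 6 times in TERT, and 71.2% of promoters hold it.

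SMC1 contacts were dense along ALK. The ALK window held 55 anchors, of which 42 overlapped the gene or lay within 2.5 kb of its start. Within the window there were 428 PETs in shLUC and 449 in shBORIS. Of these, 342 in each table had both ends in ALK. A pair was called an interaction in a table at 3 or more PETs there and a deposited Bayes probability of 0.9 or more. The window held 40 calls in shLUC and 44 in shBORIS, or 55 pairs called in either, and 43 of the 55 had both ends in ALK. No called interaction left the ALK window on chromosome 2 in either table, although 103 and 107 PETs did so on pairs of lower count. The called pairs spanned a median of 51.0 kb, against 63.3 kb over all called intrachromosomal pairs. No minimum span was set for a call.

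The hub of the locus was the anchor chr2:29872478-29875358, inside ALK. It had 115 intrachromosomal PETs in shLUC and 129 in shBORIS and took part in 10 and 13 calls. By summed intrachromosomal PETs, not adjusted for anchor width, it ranked 26th of the 39507 anchors. It was 2881 bases wide, against a median of 1172 over all anchors. Its 3 strongest loops were to neighbours in ALK. The anchor chr2:29834686-29837962, 37.6 kb away, joined it with 19 PETs in shLUC and 18 in shBORIS. From chr2:29805780-29807993, at 67.0 kb, there were 19 and 17 PETs. From chr2:29801916-29804270, at 70.8 kb, there were 16 and 19. No exon or intron is given for these anchors, since gene models of hg19 were not used here.

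A second group of anchors lay near the 3′ end of the gene. Its strongest pair, and that with the most PETs in the window, joined chr2:29471531-29474559 to chr2:29484130-29487830 over 12.9 kb with 23 PETs in shLUC and 18 in shBORIS. The latter anchor, 3701 bases wide, had 87 and 102 intrachromosomal PETs and ranked 65th of all anchors, again without adjustment for width. Its contact with the hub crossed 388 kb of ALK and had 9 and 10 PETs. The 3′ end was also linked to sequence beyond the gene. The anchor chr2:29178862-29182561 contacted chr2:29418460-29421140, just inside ALK, over 239 kb with 11 and 16 PETs. ALK was divided into 5 equal parts of 146 kb, numbered from the start site. Part 5, at the 3′ end, held 21 anchors and 254 summed PETs within itself. Parts 2 and 3 shared 144 PETs. Part 4 held 2 anchors, and 1 PET lay within it. Contacts between part 2 and part 5 came to 26 PETs in shLUC and 33 in shBORIS.

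The ALK start site contacted mainly its own surroundings. A pair of anchors stood there, chr2:30142394-30145225 over the start and chr2:30145279-30146919 just upstream, and 9 and 13 PETs joined them. Their midpoints were only 2.29 kb apart, and whether PETs over so short a distance reflect a loop was not tested. The upstream anchor looped to chr2:30247579-30250343, 103 kb further upstream, with 12 PETs in shLUC and 11 in shBORIS. The anchor over the start had 0 PETs to the hub in shLUC and 4 in shBORIS, and 1 and 3 PETs to chr2:29801916-29804270. These last 2 pairs were called in shBORIS alone, at counts too low for the test. The hub itself reached the upstream anchor chr2:30247579-30250343 with 10 PETs in shLUC and 4 in shBORIS.

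**Figure D1:**
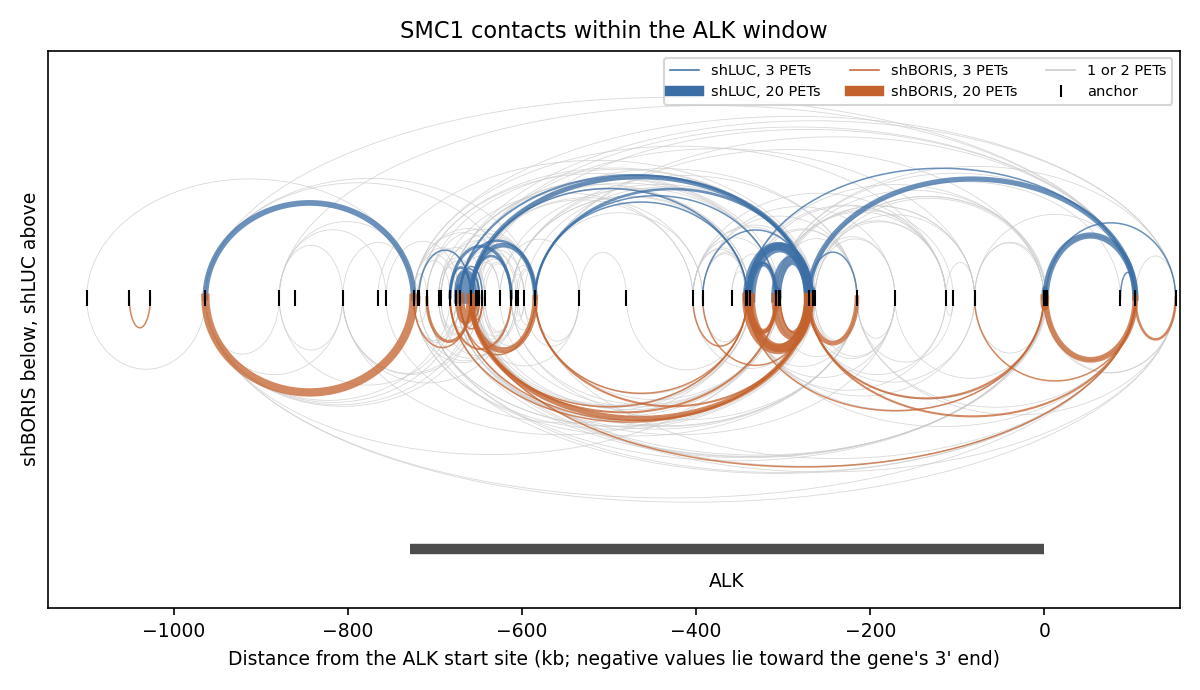
Each arc is an anchor pair within the ALK window, with shLUC above the line and shBORIS below. The x axis is the distance from the ALK start site in kb, arc height is the square root of the span, line width is proportional to PETs for pairs of at least 3, grey arcs have 1 or 2, and ticks are anchors. The loops of the hub, those of the 3′ group and the loop upstream of the start appear in both tables.

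On chromosome 2, the PETs of the ALK window differed between the tables by less than the counting error. Each table's PETs were scaled by its intrachromosomal total, and the ratio of shBORIS to shLUC was 0.940 within the window (95% interval 0.822 to 1.08). For PETs to the rest of chromosome 2 it was 0.931 (0.704 to 1.23). PETs to other chromosomes, 1159 in shLUC and 1052 in shBORIS, had a ratio of 0.914 against interchromosomal totals, and its interval of 0.840 to 0.994 did not include 1. Fisher's exact test was run on all 3951 intrachromosomal pairs with at least 10 summed PETs, with Benjamini-Hochberg adjustment. Of the 20 pairs of both windows that were tested, 0 passed an adjusted p of 0.05 and 0 had an unadjusted p under 0.05. Among all pairs 0.0506% passed, and 225 reached an unadjusted p under 0.05. The pair of the hub and its upstream partner, with 10 and 4 PETs, came lowest of the 20, at a ratio of 0.359 with interval 0.0821 to 1.24 (adjusted p = 0.912, Fisher's exact test). Next came the hub with chr2:29928199-29930097, with 3 and 9 PETs, at a ratio of 2.69 with interval 0.671 to 15.4 (adjusted p = 0.962, Fisher's exact test). For the strongest pair, with 23 and 18 PETs, the ratio was 0.701 (0.357 to 1.36). Each of the 20 intervals included a change by a factor of 2 in at least 1 direction, so a change of that size was not excluded for any of these pairs. For the strongest pair the interval included a fall by a factor of 2 but not a rise by that factor.

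Of the 55 pairs called in the ALK window, 29 were called in both tables, or 52.7%, against 34.8% of all intrachromosomal pairs called in either table. These shares were not matched for PET count, on which a call depends. A further 11 were called in shLUC alone and 15 in shBORIS alone. Among these 26, 15 had at least 1 PET in the other table. Single anchors were compared on their summed intrachromosomal PETs in the same way. Of 52 anchors of both windows tested, 0 passed Fisher's exact test, and 0.0204% of all 19623 anchors did. In ALK, chr2:29491782-29492894 had 6 PETs in shLUC and 20 in shBORIS, at a ratio of 2.99 with interval 1.16 to 9.09 (adjusted p = 0.611, Fisher's exact test). Likewise in ALK, chr2:29928199-29930097 had 10 and 26, at a ratio of 2.33 with interval 1.09 to 5.42 (adjusted p = 0.649, Fisher's exact test). These 2 anchors had the smallest p of the 52. Unadjusted, 3 of the 41 anchors tested in the ALK window and 0 of 11 in the TERT window fell under 0.05, against 1261 of all anchors tested.

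The TERT window was sparse by comparison. Its 29 anchors had a median of 3 intrachromosomal PETs in shLUC and 5 in shBORIS, against 10 and 8 in the ALK window and 5 in each table over all anchors. Their median interchromosomal PETs were 12 and 11, near the 12 and 9 of the ALK window and the 11 of all anchors in each table. Within the window there were 41 PETs in shLUC and 64 in shBORIS, with 1 and 5 calls. The strongest pair joined chr5:1380027-1381339 to chr5:1467722-1469270 in LPCAT1, 87.8 kb away across SLC6A3, with 3 and 5 PETs, and was called in both tables. Every other pair in the window had at most 4 summed PETs. A contact of that same anchor with chr5:1344190-1345898 had 0 and 4 PETs. In LPCAT1, chr5:1479226-1480652 contacted chr5:1641275-1642450 with 1 and 3 PETs and chr5:1644861-1645803 with 2 and 2. Below TERT, chr5:1167327-1169361 contacted chr5:1208466-1209886 with 1 and 3 PETs. The busiest anchor was chr5:1167327-1169361 with 25 and 36 intrachromosomal PETs. Its loop to chr5:922987-924477, across the lower edge of the window, had 7 PETs in shLUC and 9 in shBORIS.

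At the genes themselves few PETs stayed on chromosome 5. The anchor over the TERT start had 2 intrachromosomal PETs in shLUC and 5 in shBORIS. A further anchor, chr5:1297007-1298058, began 1.82 kb upstream of the start and had 4 and 5. In the body of TERT, chr5:1284340-1285899 had 3 and 5. The 2 anchors in SLC6A3 had 4 PETs in each table together, and the 4 anchors at LPCAT1 had 15 and 19. The anchor nearest the LPCAT1 start, chr5:1521948-1522668 at 1.41 kb, had 2 and 1, and 0 anchors lay within 2.5 kb of the SLC6A3 start. The ratio within the TERT window, scaled as above, was 1.40 (0.931 to 2.12), and no pair within it reached the 10 PETs needed for the test. When scaled by all PETs instead of intrachromosomal ones it was 1.51 with an interval of 1.00 to 2.29, which no longer included 1. Neither interval includes the spread between libraries.

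Between the windows there were 37 PETs in shLUC and 25 in shBORIS. From the interchromosomal totals of the anchors on each side, 0.819 and 0.786 PETs were predicted. The observed counts were 45.2 times (31.8 to 62.3) and 31.8 times (20.6 to 46.9) the prediction. When the genome was divided into bins of 1 Mb, the pair of bins at 29 to 30 Mb of chromosome 2 and 1 to 2 Mb of chromosome 5 had 33 and 24 PETs, the most of any 2 bins on different chromosomes in each table. Of 418939 bin pairs with any PET, 92.5% had 1 or 2. The bin pair ranked 4th by observed over predicted PETs among the 407 with at least 10. The next bin pair by summed PETs, between chromosomes 20 and 9, had 21 and 23, where 23.3 were predicted in sum. With bins of 0.5 Mb the region at 29.5 to 30 Mb and 1 to 1.5 Mb was first, with 19 and 17 PETs, and with bins of 2 Mb it ranked 2nd of 286420. These values chose the regions and carry no test. Whether DNA of the 2 chromosomes is joined in these cells was not tested, and PET counts alone cannot tell such a junction apart from contact between intact chromosomes.

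The contacts were spread over many pairs. Of the 45 pairs that joined the windows, 32 had 1 summed PET, 10 had 2 and 3 had more. Only 6 of the 45 were seen in both tables, 23 in shLUC alone and 16 in shBORIS alone. The hub of ALK and the TERT body anchor chr5:1284340-1285899 had 4 PETs in shLUC and 0 in shBORIS, and this pair, with a Bayes probability of 0.912, was the only one called. It was 1 of 21 interchromosomal calls among 572597 interchromosomal pairs. The same TERT anchor met chr2:29558526-29560636 with 2 and 1 PETs. At chr2:29664041-29664761 there were 1 and 2 PETs to chr5:1331162-1334601, between TERT and SLC6A3, and 1 and 1 to chr5:1167327-1169361. The other pairs among the first 10 had 2 PETs each. They joined chr2:29484130-29487830 to chr5:1284340-1285899 (1 PET in each table) and to chr5:1331162-1334601 (both in shBORIS), chr2:29498479-29499516 to chr5:1284340-1285899 (1 in each), and chr2:29460911-29462580 to chr5:1331162-1334601 and to chr5:1467722-1469270 (both in shLUC for each pair). The last, chr2:29178862-29182561 with chr5:1641275-1642450, had 2 PETs in shLUC.

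**Figure D2:**
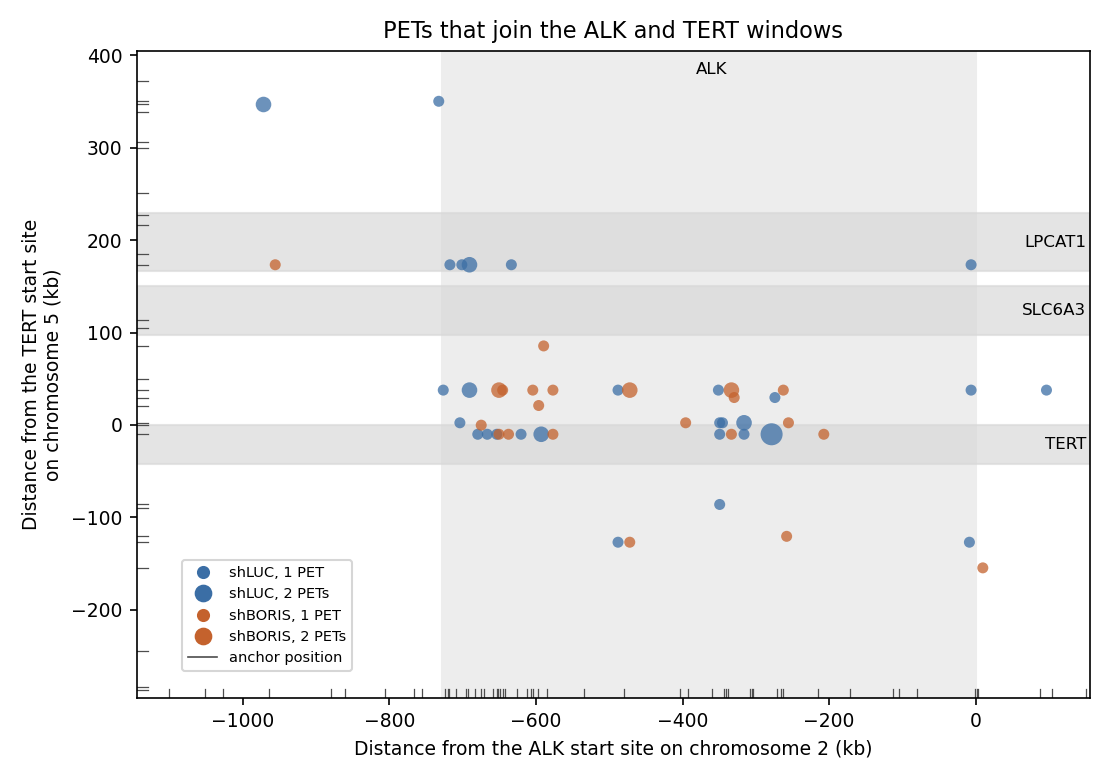
Each disc is an anchor pair that joins the windows, placed by its distance in kb from the ALK start site on chromosome 2 (x axis) and from the TERT start site on chromosome 5 (y axis). Disc area is proportional to PETs, the 2 tables are set slightly apart, ticks on the axes are anchors and shading marks the genes. Most discs lie inside ALK on 1 axis and between the body of TERT and SLC6A3 on the other, in both tables.

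On chromosome 5 the contacts clustered at TERT and between TERT and SLC6A3. Of the 62 PETs summed over the tables, 45 lay within 50 kb of the TERT start and 59 within 250 kb. The 3 anchors at TERT had 17 PETs to the ALK window in shLUC and 8 in shBORIS, or 34.7% of their 72 summed interchromosomal PETs. Between TERT and SLC6A3 the 5 anchors had 8 and 13, or 13.0%. Most of these lay at chr5:1331162-1334601 alone, which had 7 and 10, or 20.2% of its 84 interchromosomal PETs. Outside this stretch the shares of whole segments were lower. The 8 anchors below TERT had 3 and 3, or 2.17%, the 4 at LPCAT1 had 6 and 1, or 5.93%, and the 7 above LPCAT1 had 3 and 0, or 1.58%. All those at LPCAT1 lay at chr5:1467722-1469270, where they made up 14.9% of 47 interchromosomal PETs. Single anchors thus did not follow the order of the segments. The 2 anchors in SLC6A3 had 0 of 19, which allows a share of up to 15.8%, so a share like that between TERT and SLC6A3 was not detectable there.

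The 2 leading chromosome 5 anchors gave 34 of the 62 PETs, and 18 in shLUC and 10 in shBORIS remained without them. The TERT body anchor chr5:1284340-1285899 had 12 PETs to the ALK window in shLUC and 5 in shBORIS, from 9 chromosome 2 anchors. Its PETs on chromosome 5 numbered 3 and 5, so the summed PETs to the ALK window, 17, exceeded those on its own chromosome, 8. The anchor chr5:1331162-1334601 had 7 and 10 PETs to the ALK window, from 12 anchors, beside 6 and 12 on chromosome 5. The third, chr5:1297007-1298058 upstream of TERT, had 5 and 2, from 6 anchors, beside 4 and 5. At the anchor over the TERT start itself there were 0 and 1. The first of these anchors had more PETs than the second in shLUC and fewer in shBORIS, a difference that was not tested.

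**Figure D3:**
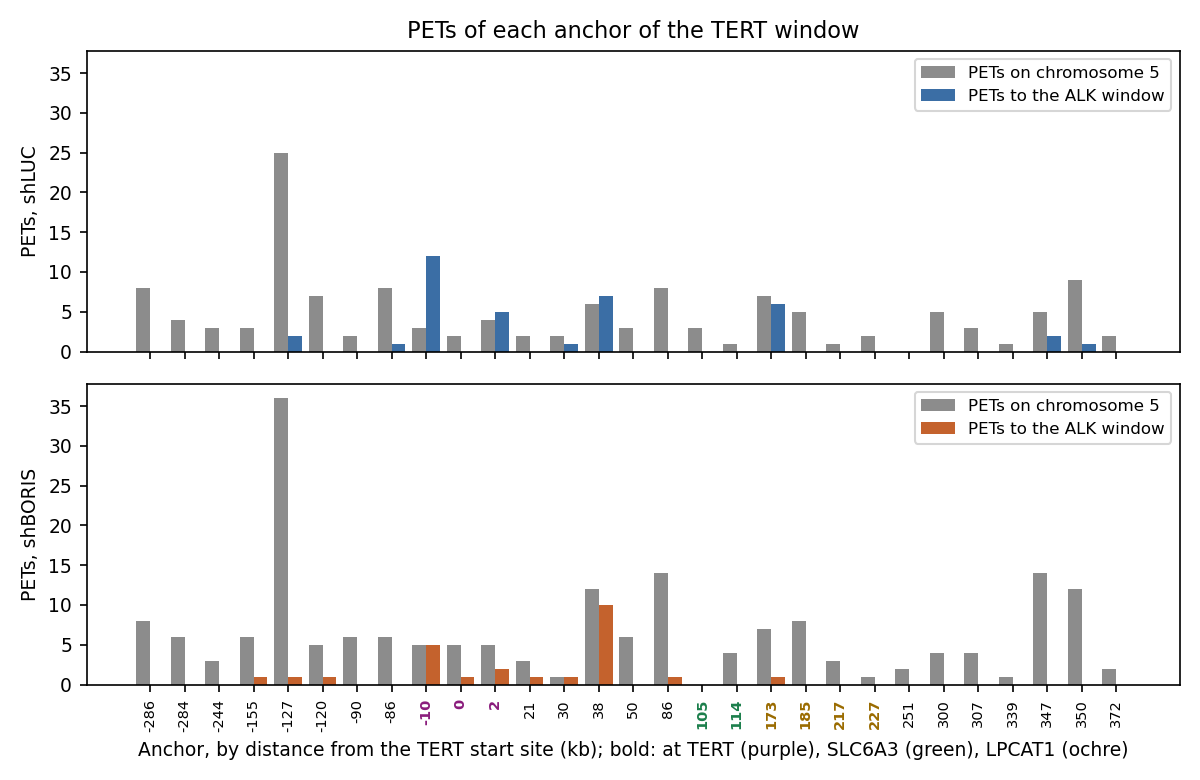
Bars give PETs of each anchor of the TERT window, grey for PETs on chromosome 5 and coloured for PETs to the ALK window, with shLUC in the upper panel and shBORIS in the lower. Anchors are named by their distance in kb from the TERT start site. The coloured bars reach 12 at the TERT body anchor in shLUC and 10 at the leading anchor between TERT and SLC6A3 in shBORIS, whereas the tallest grey bar, 25 and 36, stands at an anchor with 2 and 1 PETs to the ALK window.

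On chromosome 2 the contacts lay along the gene body. Anchors at ALK gave 34 of the 37 PETs in shLUC and 24 of the 25 in shBORIS. Of the 62 summed PETs, 53 lay between -750 and -250 kb from the ALK start, negative distances being toward its 3′ end. Part 5 of the gene had 16 and 11 PETs, part 3 had 8 and 5, and part 2 had 5 and 4. As shares of interchromosomal PETs these were 3.25%, 3.88% and 3.10%. Part 4, with 2 anchors, had 2 and 3 PETs or 27.8% of its few interchromosomal PETs, all at the anchor chr2:29664041-29664761. Part 1, which holds the start, had 1 PET, or 0.719%, and it lay at the anchor over the start, chr2:30142394-30145225. Anchors were assigned to parts by midpoint, so chr2:30145279-30146919, just upstream of the start, fell outside part 1. That anchor had 2 PETs in shLUC and 1 in shBORIS, or 5.08% of its 59 interchromosomal PETs. The leading chromosome 2 anchor, chr2:29801916-29804270, had 3 PETs in each table, and chr2:29460911-29462580 had 4 and 1. At chr2:29664041-29664761 there were 2 and 3, from 12 interchromosomal PETs in all. The hub of ALK, which had the most intrachromosomal contacts, had 4 and 1. PETs between the windows touched 29 of the 55 chromosome 2 anchors and 14 of the 29 on chromosome 5. The PETs of LPCAT1 came to 5 and 0 with part 5 of ALK, 1 and 0 with chr2:30145279-30146919 at the ALK start, and 0 and 1 below ALK.

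**Figure D4:**
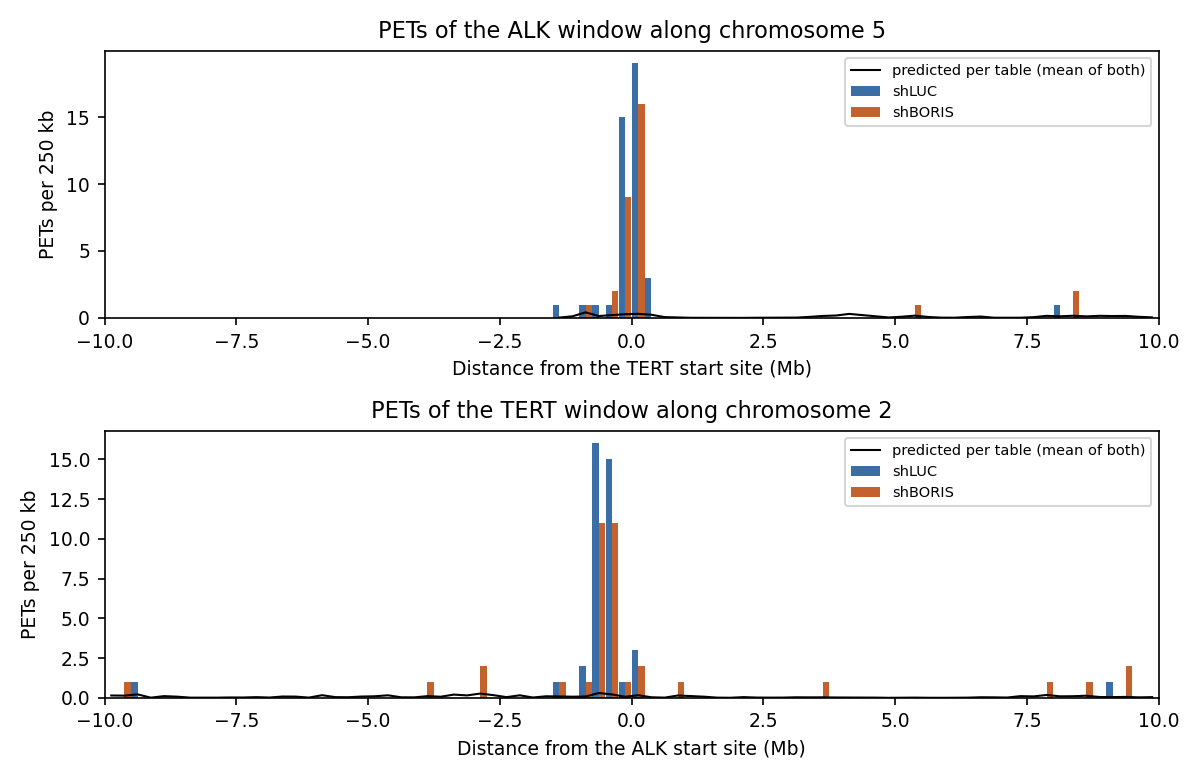
Bars give PETs per 250 kb from the ALK window along chromosome 5 (upper panel) and from the TERT window along chromosome 2 (lower panel), against distance in Mb from the start site of TERT or ALK. The black line is the number predicted per table from interchromosomal totals. The bars reach 19 and 16 PETs in the bin just upstream of the TERT start and 16 and 11 in a bin on the 3′ side of the ALK start, each beside 1 other high bin with 15 and 9 or 15 and 11, and stay at 3 or fewer in the other bins shown.

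Contacts fell away outside the windows, though not at once to the prediction. Between 28 to 32 Mb of chromosome 2 and 0 to 2 Mb of chromosome 5, the PETs that did not join the windows numbered 8 in each table, 16 in sum, where 5.07 were predicted. Over the whole chromosomes the counts were nearer the prediction. In bins of 250 kb, the ALK window had 127 PETs with the rest of chromosome 5, where 117 were predicted, and the highest of 562 such bins had 3. The TERT window had 60 PETs with the rest of chromosome 2, where 56.4 were predicted, with a highest bin of 3 among 725. Widening both windows by 200 kb on each side added 1 PET in shLUC and 5 in shBORIS, to 38 and 30. No other 1 Mb bin of another chromosome had more than 13 summed PETs with the ALK window, and apart from 29 to 31 Mb of chromosome 2 none had more than 5 with the TERT window.

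Scaled by interchromosomal totals, the ratio of shBORIS to shLUC for PETs between the windows was 0.680 (0.392 to 1.16). The interval includes 1 and also a fall by a factor of 2. Without these PETs, the interchromosomal ratios were 0.921 (0.846 to 1.00, the upper limit just over 1) for the ALK window and 1.10 (0.950 to 1.27) for the TERT window. Only 10 interchromosomal pairs in the genome reached 10 summed PETs. None of them was a pair of these windows, 0% passed by Fisher's exact test, and 1 had an unadjusted p under 0.05. Summed per anchor, 76 anchors of the windows were tested on interchromosomal PETs and 0 passed, against 0.014% of 35637 anchors, while unadjusted values under 0.05 came from 4 of the 76 and 1981 of all. At chr5:1331162-1334601, lowest of the 76, there were 29 PETs in shLUC and 55 in shBORIS, at a ratio of 1.91 with interval 1.20 to 3.11 (adjusted p = 0.626, Fisher's exact test). Its PETs to the ALK window, 7 and 10, are part of that sum. In ALK, chr2:29537382-29538340 had 10 and 1, at a ratio of 0.101 with interval 0.00232 to 0.708 (adjusted p = 0.715, Fisher's exact test).

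**Figure D5:**
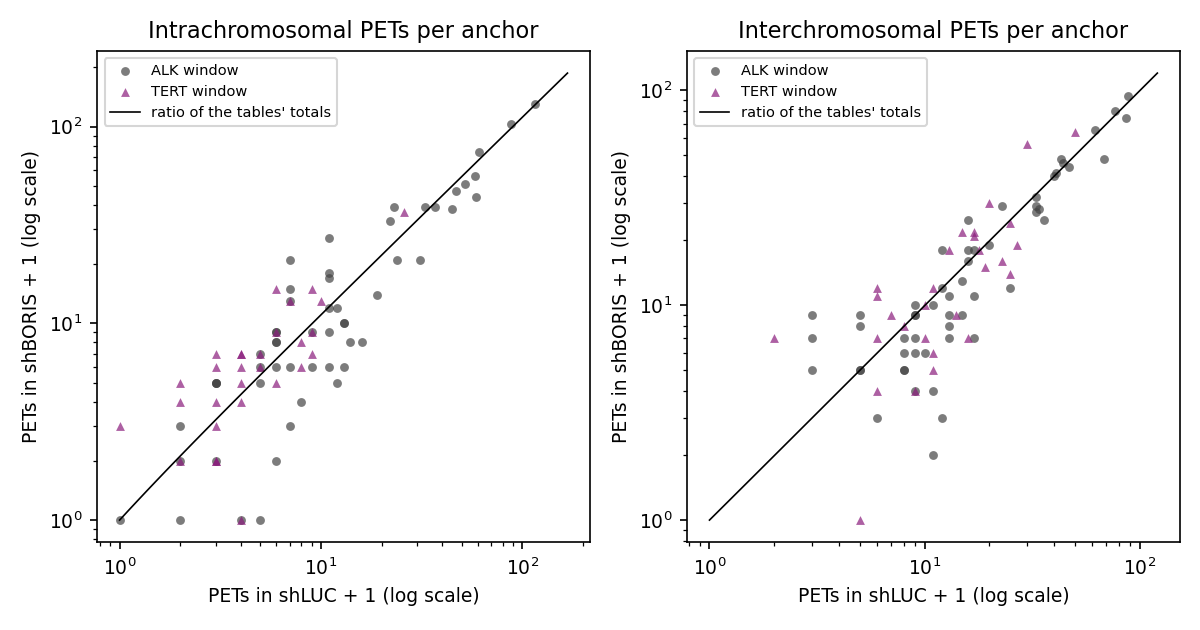
Each point is an anchor of the ALK window (circles) or the TERT window (triangles), with its PETs in shLUC on the x axis and in shBORIS on the y axis, both plus 1 on a log scale, for intrachromosomal PETs on the left and interchromosomal PETs on the right. The line marks the ratio of the tables' totals. The hub of ALK, with 115 and 129 intrachromosomal PETs, is the point farthest up the left line, and the scatter around the line widens at low counts.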

How the data were processed

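Libraries of SMC1 ChIA-PET from resistant Kelly cells were deposited as 1 table of anchor pairs per group, which both libraries of the group name in their labels. Cutadapt 1.8, Bowtie and build hg19 are named per the submitters' processing notes. The program that set anchors and scored pairs is not given in the sources used here. PET counts are whole numbers and unnormalized as deposited. The hypergeometric p-value of the authors was not used. The authors' Bayes probability, a fraction from 0 to 1, served for calls. The shBORIS table has no header, so its columns were taken to follow those of the shLUC table. Starts are printed with 1 as the first base.

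Gene and window positions were those of the selection rule in hg19. Scaled ratios and Clopper-Pearson intervals (95%) were computed with Python 3.11.15 and scipy 1.17.1. PETs were predicted as the product of both sides' interchromosomal totals over 2 times the table's total. Fisher's exact test was run over all pairs and all anchors of the whole table with at least 10 summed PETs, intrachromosomal and interchromosomal ones apart, with Benjamini-Hochberg adjustment. Only its use on intrachromosomal pairs was tried on simulated data. The rule for named items took anchors within 2.5 kb of a start, the 5 pairs with most PETs per window, 10 joining pairs, 3 joining anchors per side and the 2 smallest p-values. Others, among them the ALK parts and the motifs, were chosen after their values were seen. Members and lists were chosen with earlier results of these data known. PETs without molecular identifiers are not independent molecules.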

Additional observations from a re-analysis of the deposited data

How the results depend on the processing

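For 22 results, 66 alternatives were computed. In 45 of them a count changed by at most 1.5 times or a value stayed inside its interval, and 21 moved. Some of the 45 could not move, such as the calls per table where only the rule for sharing was changed. The 45 are therefore no measure of stability. A reversal of direction between the tables was not scored. The 2-anchor alternative was chosen after seeing the data. PETs between the windows, in shLUC and shBORIS, numbered 17 and 6 with gene bodies alone and 14 and 6 on pairs with at least 2 PETs in the table. They numbered 18 and 10 without the 2 leading chromosome 5 anchors, chr5:1284340-1285899 and chr5:1331162-1334601. On joining pairs with at least 3 summed PETs, 7 and 3 PETs remained and the scaled ratio was 0.358 (0.0598 to 1.57). With at least 5 PETs for a call, the ALK window held 23 calls in shLUC and 20 in shBORIS, against 40 and 44 in the main setting. Of these, 14 were shared, 9 were in shLUC alone and 6 in shBORIS alone, against 11 and 15 alone in the main setting. The order of the tables thus changed for both counts. The TERT window then held 0 and 1 calls, with 0 shared and 1 in shBORIS alone. Where 1 PET in the other table sufficed for sharing, the ALK window had 44 shared, 5 in shLUC alone and 6 in shBORIS alone, and the TERT window 4 shared and 1 in shBORIS alone. These settings keep fewer pairs or anchors or use a looser rule, and the reason for each shift was not tested. With at least 20 interchromosomal PETs per anchor, 8 anchors of the whole table passed Fisher's exact test instead of 5, and 0 of the windows. No paired analysis was possible because the deposited values merge both libraries of a group, and no library could be left out. At this depth only large changes of a pair could be detected.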

Other observations

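Further interchromosomal partners of the windows are given as values. After chromosome 5, the ALK window had most PETs with 136 to 137 Mb of chromosome 9, at 7 in shBORIS and 6 in shLUC, where 10.0 summed PETs were predicted. With 57 to 58 Mb of chromosome 12 it had 6 PETs in each table against 4.59 predicted in sum, and with 61 to 62 Mb of chromosome 20 it had 5 in shLUC and 7 in shBORIS against 5.44. The TERT window had 1 PET in shLUC and 4 in shBORIS with 73 to 74 Mb of chromosome 10, against 0.872 predicted in sum, and 2 and 3 with 156 to 157 Mb of chromosome 1, against 3.03.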
